A study of Mus musculus with 4 samples.

Results

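The antigen receptor segments are the short V, D and J coding pieces of the immunoglobulin and T cell receptor loci, and 330 of the 46406 rows in the accessibility table carry a segment symbol. Members were chosen by symbol alone (Igh, Igk, Igl, Tra, Trb, Trd or Trg followed by v, d or j and a number), and all 330 matched a RefSeq gene. They comprised 245 V, 6 D and 79 J segments. The rows came from ATAC-seq, in which the Tn5 transposase cuts and tags open DNA, of J1 mouse embryonic stem cells grown without feeder cells. There were 2 control libraries, labelled wild type 1 and 2, and 2 libraries of cells labelled Zscan4 OE, which overexpress the zinc finger protein Zscan4. All 4 libraries were labelled passage PN+8. The labels name neither the vector nor the promoter. They do not say either if the cultures behind a group's 2 libraries were separate, and a p-value then covers no more than library-to-library spread, possibly technical. The title of the series links Zscan4 to greater chromatin accessibility, and the comparison asks whether the segments gained or lost reads.

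In developing lymphocytes the RAG recombinase joins a V, a D and a J segment (or a V and a J segment) into the exon that encodes the antigen-binding part of a receptor chain. Igh encodes the immunoglobulin heavy chain, Igk and Igl the kappa and lambda light chains, and Tra, Trb, Trd and Trg the chains of the T cell receptors. RAG cuts beside recombination signal sequences, and each locus is opened to it only in the lineage and at the stage that rearranges it. In embryonic stem cells the segments lie in their unrearranged germline order, spread over long clusters that include many V pseudogenes.

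On GRCm38, the assembly behind the mm10 build named for the data, the Igh segments lay on chromosome 12 from 113428514 to 116009954 and the Igk segments on chromosome 6 from 67555636 to 70723923. The Trb segments lay on chromosome 6 from 40891296 to 41558371, and the Tra segments, with the Trd segments among them, on chromosome 14 from 52427967 to 54218842. The Igl segments lay on chromosome 16 from 19063225 to 19241679. The only Trg row, the J segment Trgj4, lay on chromosome 13 from 19342152 to 19342212. Igk held 97 rows, Igh 95, Tra 75, Trb 46, Trd 9 and Igl 7.

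The libraries were shallow. Totals ranged from 1061428 reads in control 1 to 4899494 in Zscan4 OE 2, and 9.38% to 12.8% of them fell on the rows of the table. Totals were assigned to libraries so that these shares were most alike, and ratios between the groups rest on that choice. Counts below are whole reads recovered from the deposited RPKM values. RPM means reads per 1000000 reads of the library total, and RPKM means RPM per kb of the row's length. A row at 0 may hold up to 3 reads within counting error, which is 2.83, 1.03, 0.832 and 0.612 RPM in control 1, control 2, Zscan4 OE 1 and Zscan4 OE 2. Values are given in that order of libraries throughout.

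The segments held very few reads. Summed over all 330, there were 71, 106, 221 and 263 reads, or 66.9, 36.5, 61.3 and 53.7 RPM, with exact Poisson 95% intervals of 52.2 to 84.4, 29.9 to 44.2, 53.5 to 69.9 and 47.4 to 60.6 RPM. The 2 controls stood farther apart than the 2 Zscan4 OE libraries, and the groups overlapped. The Zscan4 OE mean of 57.5 ± 5.38 RPM (SD, n = 2) was 1.11 times the control mean of 51.7 ± 21.5 RPM (SD, n = 2; exact permutation test, two-sided p = 1). Without control 2 this ratio was 0.859, and without control 1 it was 1.57. With 2 libraries against 2, the smallest p this test can give is 0.333. Intervals cover counting error only, since reads copied by PCR are not independent molecules.

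Of the 330 segments, 74 had no read in any library, 127 had a single read over all 4, and 38 had 5 reads or more. No segment passed 19 reads. The share of segments with at least 1 read was 15.5%, 22.1%, 37.0% and 46.4%, in the same order as the library totals. A segment listed at 0 is therefore below detection at this depth and is not shown to be closed.

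V segments, which encode most of the variable domain, gave 60.3, 31.0, 51.9 and 44.9 RPM, which overlapped (ratio 1.06, or 0.802 without control 2 and 0.984 without Zscan4 OE 1). J segments, which encode its end, gave 6.59, 5.51, 8.87 and 7.35 RPM. Both Zscan4 OE libraries lay above both controls for the J segments, at 1.34 times the control mean (8.11 ± 1.08 against 6.05 ± 0.767 RPM, SD, n = 2 each; exact permutation test, p = 0.333, the smallest possible). Without the 3 J rows with the most reads the groups overlapped, at 6.59, 4.48, 7.77 and 6.53 RPM (exact permutation test, p = 0.667). The Poisson intervals of the J sums overlapped in all 4 libraries. D segments, the shortest, had 0, 0, 2 and 7 reads.

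V segments were covered less densely than J segments. They had a median recovered length of 353 bp and averaged 0.560 ± 0.148 RPKM (SD over 4 libraries), and J segments, with a median of 57 bp, averaged 1.74 ± 0.348 RPKM. The V to J ratio per kb was 0.443, 0.272, 0.283 and 0.296. It was below 1 in 4 of 4 libraries (exact sign-flip permutation test, p = 0.125, the smallest possible with 4 libraries; 0.185 after Benjamini-Hochberg adjustment over 40 tested ratios). Per row the order turned round, since a V row held 2.15 ± 0.533 times the reads of a J row in the mean of the 4 libraries. Short rows elsewhere in the table were dense too. Short RNA genes of 36 to 75 bp averaged 3.37 RPKM, and the J segments stood at 0.531 ± 0.105 times their density, below 1 in 4 of 4 libraries with the same p.

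All segments together averaged 0.620 ± 0.150 RPKM (SD over 4 libraries), against 0.923 ± 0.142 for all other rows. The ratio was 0.740, 0.532, 0.655 and 0.740, below 1 in 4 of 4 libraries (exact sign-flip permutation test, p = 0.125, adjusted 0.185). V segments can be set beside other clustered families that stem cells do not use. Their density was 1.85 ± 0.571 times that of 1346 olfactory receptor rows and 2.44 ± 0.655 times that of 240 vomeronasal receptor rows, above 1 in 4 of 4 libraries for both. Those receptor rows were much longer, with medians of 2634 and 2589 bp. Beside rows of like length, the order depended on the rows included. V density was 0.733 ± 0.145 times that of 1158 other pseudogenes of 250 to 600 bp. The ratio was 0.809, 0.580, 0.647 and 0.896, below 1 in 4 of 4 libraries (exact sign-flip permutation test, p = 0.125, adjusted 0.185). However, 1 of these pseudogene rows held 24.6% of their reads. Without that row the ratio was 1.42, 0.711, 0.941 and 1.05 (exact sign-flip permutation test, p = 1). V density was 1.14, 0.642, 0.648 and 0.597 times that of 47 defensin rows, whose median length was 356 bp (exact sign-flip permutation test, p = 0.25, adjusted 0.312).

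**Figure D1:**
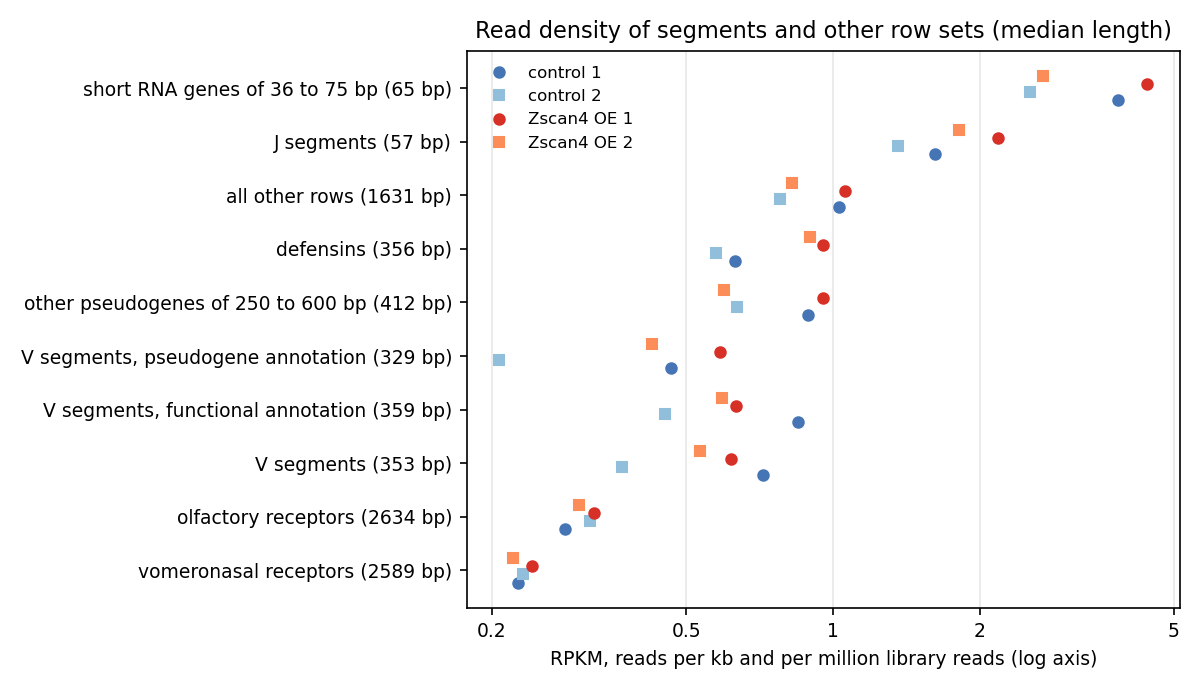
Read density of V and J segments and of comparison rows, 1 point per library, on a log axis in RPKM, with each set's median recovered length in brackets. J segments lie below the short RNA genes and above all V sets, and V segments lie above the long olfactory and vomeronasal receptor rows in each library.

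The V clusters were not equally covered. Ighv rows averaged 0.768 RPKM, Trbv 0.601, Trav 0.505 and Igkv 0.385 over the 4 libraries. Igkv was the lowest of these means, and its density was below that of Ighv and of Trbv in 4 of 4 libraries (Ighv to Igkv ratios of 2.85, 3.17, 1.32 and 1.55; Igkv to Trbv ratios of 0.510, 0.389, 0.972 and 0.685; exact sign-flip permutation tests, p = 0.125, adjusted 0.185 for each). Ighv stood above Trbv in 4 of 4 libraries, at 1.26 ± 0.162 times its density. Trav had no fixed place: its density lay above that of Igkv in control 2 and Zscan4 OE 2 and below it in the other libraries (p = 0.5, exact sign-flip permutation test). Immunoglobulin and T cell receptor segments as wholes averaged 0.582 and 0.715 RPKM, with a ratio above 1 only in control 1 (1.11, 0.641, 0.872 and 0.628; p = 0.25, exact sign-flip permutation test). These wholes differed in row length, with median recovered lengths of 352 and 65.5 bp. Per row the order turned round, with ratios of 1.80, 1.04, 1.42 and 1.02, above 1 in 4 of 4 libraries (exact sign-flip permutation test, p = 0.125, adjusted 0.185).

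The heavy chain locus held the most reads. Its 95 rows gave 38, 47, 81 and 94 reads, or 35.8, 16.2, 22.5 and 19.2 RPM. Control 1 was high and the other 3 libraries lay close together, so the groups overlapped at a ratio of Zscan4 OE to control of 0.801 (exact permutation test, p = 1). Without control 1 the ratio was 1.29. Ighv8-2, a heavy chain V segment at chr12:114462290-114462589, had 7, 3, 4 and 5 reads and was the segment with the most reads of all. Its RPKM of 18.4, 2.88, 3.09 and 2.84 was high in control 1 alone. Ighv1-14 had 1, 7, 6 and 1 reads, and Ighv6-4 had 1, 1, 8 and 4. Of the 6 Ighv families with at least 6 rows, the groups did not overlap in 2, which were picked after their values were seen. The Ighv1 family, the largest with 35 rows, gave 8.48, 7.58, 6.93 and 4.08 RPM, lower in both Zscan4 OE libraries (0.686 times; the groups overlapped, at 1.43 times, on the values as deposited). The 7 rows of the Ighv6 family gave 1.88, 1.03, 3.33 and 2.86 RPM, higher in both (exact permutation test, p = 0.333 for each family, the smallest possible). The Ighv2, Ighv3, Ighv5 and Ighv8 families overlapped, with ratios of 1.23, 1.17, 0.526 and 0.361. No test was made between families.

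The kappa locus gave 14, 16, 64 and 63 reads, or 13.2, 5.51, 17.7 and 12.9 RPM. Zscan4 OE 2 fell just under control 1, so the groups overlapped (1.64 times; 15.3 ± 3.46 against 9.35 ± 5.43 RPM, SD, n = 2 each; exact permutation test, p = 0.667). The ratio was 2.78 without control 1 and 1.16 without control 2. Its 3 segments with the most reads owed them mainly to a single library. Igkv14-134-1, a V pseudogene at chr6:67711174-67711628, had 0, 0, 9 and 0 reads. Igkv5-40-1, also a pseudogene, had 1, 0, 1 and 7, and the functional segment Igkv8-34 had 0, 1, 5 and 1. The values of Igkv14-134-1 rest on the shortest of 3 possible lengths.

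The functional and pseudogene rows of Igkv, as RefSeq annotates them, gave different sums. This split was chosen after the values were seen. The 58 functional Igkv rows gave 13, 16, 36 and 38 reads, or 12.2, 5.51, 9.98 and 7.76 RPM, which overlapped (ratio 0.999). The 35 Igkv pseudogene rows gave 1, 0, 28 and 24 reads, or 0.942, 0, 7.77 and 4.90 RPM. Both Zscan4 OE libraries lay above both controls (6.33 ± 2.03 against 0.471 ± 0.666 RPM, SD, n = 2 each; exact permutation test, p = 0.333, the smallest possible). Pooled over libraries, 52 Zscan4 OE reads against 1 control read made a ratio of 24.2, with an exact interval from counting error of 4.16 to 976. The pooled ratio was 1.19 (0.765 to 1.90) for functional Igkv rows, 1.97 (1.32 to 3.04) for the kappa locus and 1.27 (1.07 to 1.52) for all segments. These intervals take reads as independent and leave out the spread between libraries. For the Igkv pseudogenes the ratio of the group means was 13.4, or 6.72 without control 2, and without control 1 the control had no read.

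The reads were spread over many kappa pseudogenes. Of the 35 rows, 23 had a read, all 23 of them in Zscan4 OE and 1 of them also in a control, but only 4 had reads in both Zscan4 OE libraries. Igkv3-12-1, with 0, 0, 4 and 2 reads, was one of these. Without the 3 rows with the most reads the sums were 0, 0, 14 and 15 reads. With the 93 Igkv rows cut into 3 parts of 31 by distance from the J segments, the pseudogenes of the farthest part had 0, 0, 17 and 3 reads, those of the middle part 0, 0, 6 and 9, and those of the nearest part 1, 0, 5 and 12. Pseudogenes made up 37.6% of the Igkv rows and 7.14%, 0%, 43.8% and 38.7% of the Igkv reads, with Clopper-Pearson 95% intervals of 0.181 to 33.9%, 0 to 20.6%, 31.4 to 56.7% and 26.6 to 51.9%.

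Pseudogenes of the other V clusters overlapped between groups. In Ighv they held 21.6%, 29.8%, 33.3% and 29.2% of the reads, and their sums of 7.54, 4.82, 7.21 and 5.31 RPM overlapped (ratio 1.01; exact permutation test, p = 1). In Trbv the share was 40%, 13.3%, 16.7% and 12.1%, and in Trav 33.3%, 12.5%, 13.3% and 15.6%. No test of the difference between kappa and the other clusters was made. Over all V rows, functional segments were denser than pseudogenes, with ratios of 1.82, 2.19, 1.08 and 1.39, above 1 in 4 of 4 libraries (exact sign-flip permutation test, p = 0.125, adjusted 0.185). Of the single clusters this held in 4 of 4 libraries for Ighv. The ratio was below 1 for Igkv in both Zscan4 OE libraries (0.681 and 0.839), for Trav in control 1 and Zscan4 OE 2 (0.351 and 0.949) and for Trbv in control 1 (0.680).

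**Figure D2:**
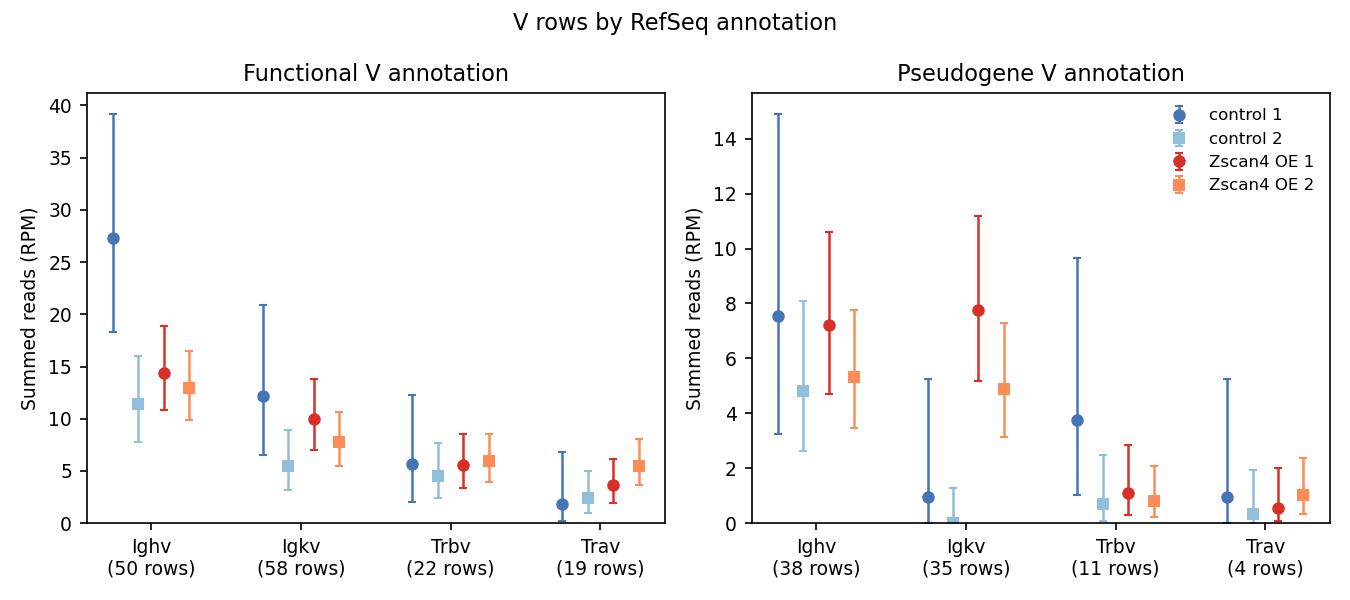
Summed reads in RPM of functional (left) and pseudogene (right) V rows of the 4 large clusters, 1 point per library with its exact Poisson 95% interval. The kappa pseudogenes stand at 0.942 and 0 RPM in the controls and at 7.77 and 4.90 RPM in Zscan4 OE, while the functional kappa rows overlap.

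The alpha locus gave 9, 20, 37 and 55 reads, or 8.48, 6.89, 10.3 and 11.2 RPM, higher in both Zscan4 OE libraries at 1.40 times the control mean (10.7 ± 0.682 against 7.68 ± 1.13 RPM, SD, n = 2 each; exact permutation test, p = 0.333, the smallest possible). Trav gave 2.83, 2.76, 4.16 and 6.53 RPM, while the 52 Traj rows gave 5.65, 4.13, 6.10 and 4.69 RPM and overlapped. Trav6-2, at chr14:52667411-52667864, had 0, 0, 1 and 15 reads and thus held 15 of the 32 Trav reads in Zscan4 OE 2. Trav18, Trav21-dv12, Trav5-1, Trav7-1 and the J segment Traj33 followed with 5 reads each. Trav5-1 had 0, 0, 4 and 1 reads, and Trav21-dv12 had 0, 2, 3 and 0. Without the 3 rows with the most reads the ratio for the locus was 1.10 in place of 1.40.

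The beta locus gave 10, 19, 29 and 41 reads, or 9.42, 6.54, 8.04 and 8.37 RPM, and its group means differed by less than the spread between the controls (ratio 1.03, or 0.871 without control 2; exact permutation test, p = 1). Trbv31, at chr6:41557693-41558371, is the V segment that lies downstream of the constant genes, nearest to the J segments. It held 4, 8, 1 and 2 reads, or 9.02, 6.59, 0.663 and 0.977 RPKM. Both controls stood above both Zscan4 OE libraries, with a log2 difference in RPKM + 0.1 of -3.11 (SE 0.463; limma, adjusted p = 0.167). Trbv4, at the other side, had 0, 0, 2 and 6 reads (log2 difference 4.46, SE 0.773; limma, adjusted p = 0.207), and Trbv19 had 1, 0, 2 and 3. Without these 3 rows, which had the most reads, the ratio for the locus was 1.5. All 13 Trbj rows had a read, and together they held 0, 4, 5 and 8.

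The small loci gave too few reads to compare. The Igl rows held 0, 2, 6 and 3 reads, of which Iglv3 held 0, 1, 3 and 2. No other Igl row had more than 1. The 9 Trd rows held 0, 2, 4 and 6 reads, with Trdv4 at 0, 1, 2 and 1. Trgj4 had 1 read, in Zscan4 OE 2. The control reads pooled over both libraries numbered 2 for Igl and 2 for Trd, which made ratios of 2.1 (interval from counting error 0.434 to 20) and 2.33 (0.497 to 21.9).

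**Figure D3:**
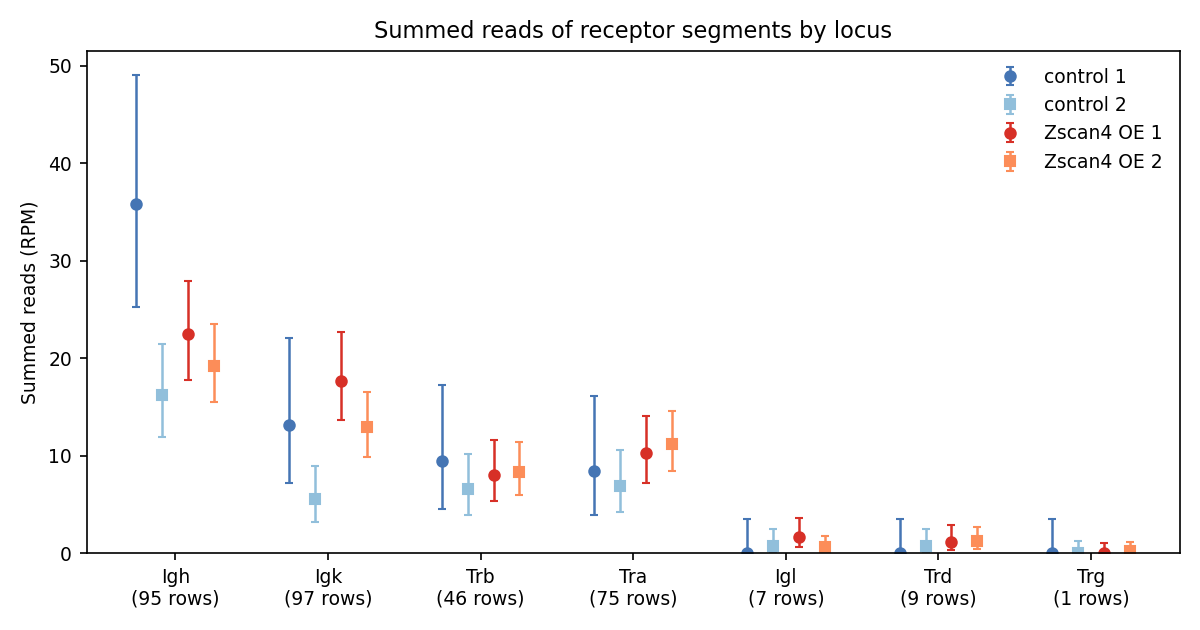
Summed reads in RPM of the segments of each locus, 1 point per library with its exact Poisson 95% interval, and the number of rows under each name. Igh is highest in control 1 at 35.8 RPM, Tra lies higher in both Zscan4 OE libraries, and the bars of Igl, Trd and Trg reach down to or near 0 in most libraries.

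Every D segment had a read, all of them in Zscan4 OE. D segments form the middle of the heavy, beta and delta chain joints, and the rows covered only 10 to 17 bp each. Ighd5-1, at chr12:113526800-113526809, and Trdd2, at chr14:54122226-54122241, had 0, 0, 1 and 1 reads. Trdd1 had 0, 0, 0 and 2. Ighd4-1, Ighd2-3 and Ighd3-1 had 1 read each, in Zscan4 OE 2. In the controls 0 D reads fell among 3965030 reads in all, against 9 among 8505268 in Zscan4 OE. The Poisson intervals of the D sum were 0 to 3.48 and 0 to 1.27 RPM in the controls and 0.0672 to 2.00 and 0.574 to 2.94 RPM in Zscan4 OE, and they overlapped. A single read made 18.6 RPKM in Ighd4-1, which is 11 bp long.

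Density varied along the clusters. With each V cluster cut into 3 parts of like numbers of rows, the Ighv part farthest from the J segments averaged 0.497 RPKM, against 0.847 for the nearest and 0.978 for the middle part. In Trbv the nearest part averaged 0.992 RPKM and the others 0.373 and 0.419, and Trbv31 held 15 of the 44 reads of the nearest part. In Trav the middle part had 0, 2, 1 and 1 reads over 8 rows and 0.102 RPKM, against 0.526 and 0.975 for the nearest and the farthest part. Trav6-2 held 16 of the 33 reads of the farthest part, which averaged 0.723 RPKM without it. The Igkv parts were closer together, at 0.425, 0.406 and 0.324 RPKM from nearest to farthest. Among the Traj rows, all 17 of the 3' part, the side of the constant gene Trac, had a read, against 14 of 18 in the 5' part and 9 of 17 in the middle part. No test was made between these parts.

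**Figure D4:**
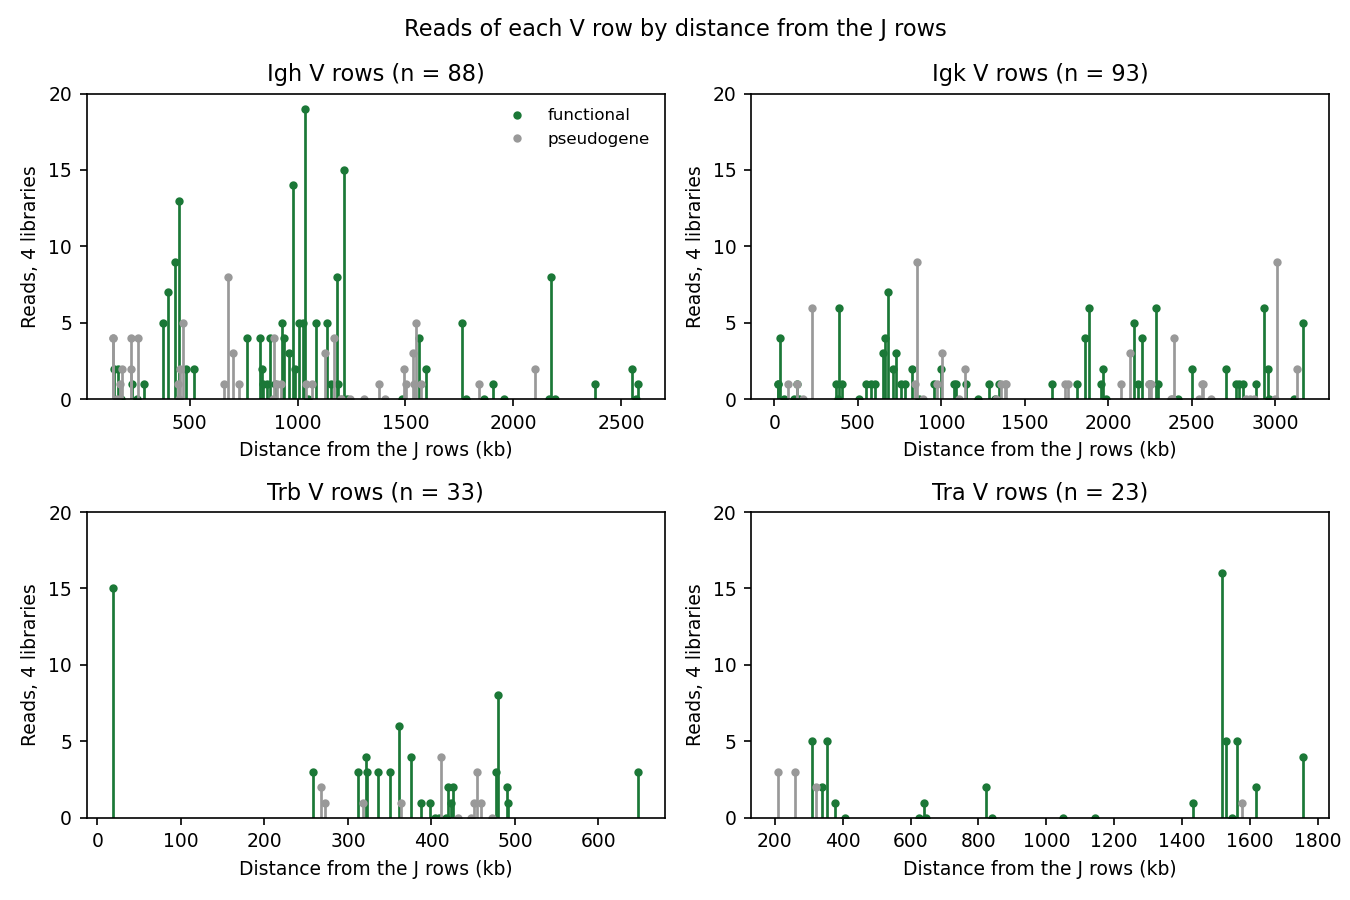
Reads of each V row over the 4 libraries (vertical axis) by distance in kb from the midpoint of the J rows of its locus (horizontal axis), for Igh, Igk, Trb and Tra, with functional rows in green and pseudogenes in grey. The row with the most reads, Ighv8-2, reaches 19, and Trbv31 stands alone beside the Trb J rows at 18.6 kb.

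No single segment passed the test for a difference between the groups. Limma on log2(RPKM + 0.1) tested 42989 rows, and p-values were adjusted over all of these by the method of Benjamini and Hochberg. It called 0 of the 256 segments tested in either direction at an adjusted p of 0.05, and 0% of all tested rows in either direction. The smallest adjusted p among the segments was 0.156. The 74 segments without reads were not tested, and those tested passed the filter on low values through the library where they had reads, so their counts describe that choice as well. At an unadjusted p of 0.05, 27 segments were higher and 7 lower in Zscan4 OE, where 5.09% of all tested rows were higher and 1.33% lower. Among rows with 2 reads in all, 19.1% of the segments and 19.3% of other rows were higher at that level. With 3 or 4 reads the shares were 27.3% and 16.5%, and with 5 to 9 reads 15.6% and 8.5%. Rows with a single read, 127 of the 256 segments tested, never passed. The controls held 3965030 reads in all, against 8505268 in Zscan4 OE. A row with few reads is thus likelier to be at 0 in both controls than in both Zscan4 OE libraries. How far this tilts the counts of higher and lower segments was not tested. The median log2 difference was 1.51 over the tested segments and 0.28 over all tested rows. It was set by the pseudocount, being 0.40 over the segments with a pseudocount of 1 and 3.09 with 0.01, and it was 0.00 without Zscan4 OE 2, when all rows stood at 0.36.

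Counted by whether the groups overlapped, the segment shares lay below those of all rows. Rows with 0 or 1 read in all cannot meet this count with all 4 libraries in. They were 74 and 127 of the 330 segments, but 2053 and 4572 of 46076 other rows. The shares over all members therefore depend on read number. Both Zscan4 OE values lay above both controls in 29 segments (8.8% of 330), against 18.5% of all rows, and below both in 12 (3.6%), against 9.38% of all rows. Of the 29, 27 had 0 reads in both controls. Without Zscan4 OE 1 the higher count was 111 (33.6%, against 30.8% of all rows), and without Zscan4 OE 2 it was 88 (26.7%, against 37.7%). Without control 1 the lower count was 51 (15.5%, against 24.8% of all rows), and without control 2 it was 47 (14.2%, against 30.0%). By reads, the higher share was 19.1% for segments and 28.6% for other rows with 2 reads, 27.3% and 23.3% with 3 or 4, and 21.9% and 22.6% with 5 to 9.

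The segments with the smallest p rested on 2 to 4 reads for all but Trbv31. Ighd5-1, Trdd2, Trbj2-7, Trbj1-6 and Traj20 each had 0 reads in both controls and 1 in each Zscan4 OE library, and differed by log2 5.39 to 7.90 (limma, adjusted p = 0.156 for each). On the lower side Traj2 had 1, 2, 0 and 0 reads, Traj40 had 1, 1, 0 and 0, Ighv5-11 had 1, 3, 0 and 0, and Ighv5-5 had 1, 1, 0 and 0 (limma, adjusted p = 0.156 for the first 3 and 0.295 for Ighv5-5). With controls or Zscan4 OE at 0, these fitted differences depend on the pseudocount of 0.1 and are not folds. Trbv31 was the only member of this group with reads in all 4 libraries.

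With a single Zscan4 OE library left, the spread in the fit comes from the controls alone, and a segment at 0 in both has none. Without Zscan4 OE 1, limma called 87 segments higher, and without Zscan4 OE 2 it called 57, and all 87 and all 57 had 0 reads in both controls. Of all tested rows, 10.6% and 9.1% were then called, and these counts are no evidence of a difference in those segments. Leaving out a control gave 0 calls.

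The reads of the better covered segments often came from a single library. Of the 38 segments with 5 reads or more, 13 (34.2%) had at least 75% of their reads in a single library, against 14.4% of other rows weighted to the same totals. Zscan4 OE 2 held the reads of 7 of these, Zscan4 OE 1 of 5, control 2 of 1 and control 1 of 0. Ighv12-1 had 0, 0, 0 and 8 reads, Igkv14-130 had 0, 0, 0 and 6, and Ighv6-6 had 0, 0, 0 and 5. They stand beside Trav6-2 and Igkv14-134-1, given above. The chi-square of reads against the library totals, divided by its degrees of freedom, averaged 2.57 for the segments and 1.33 for other rows of the same totals. This measure was chosen after the values were seen, and no test was made of it.

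**Figure D5:**
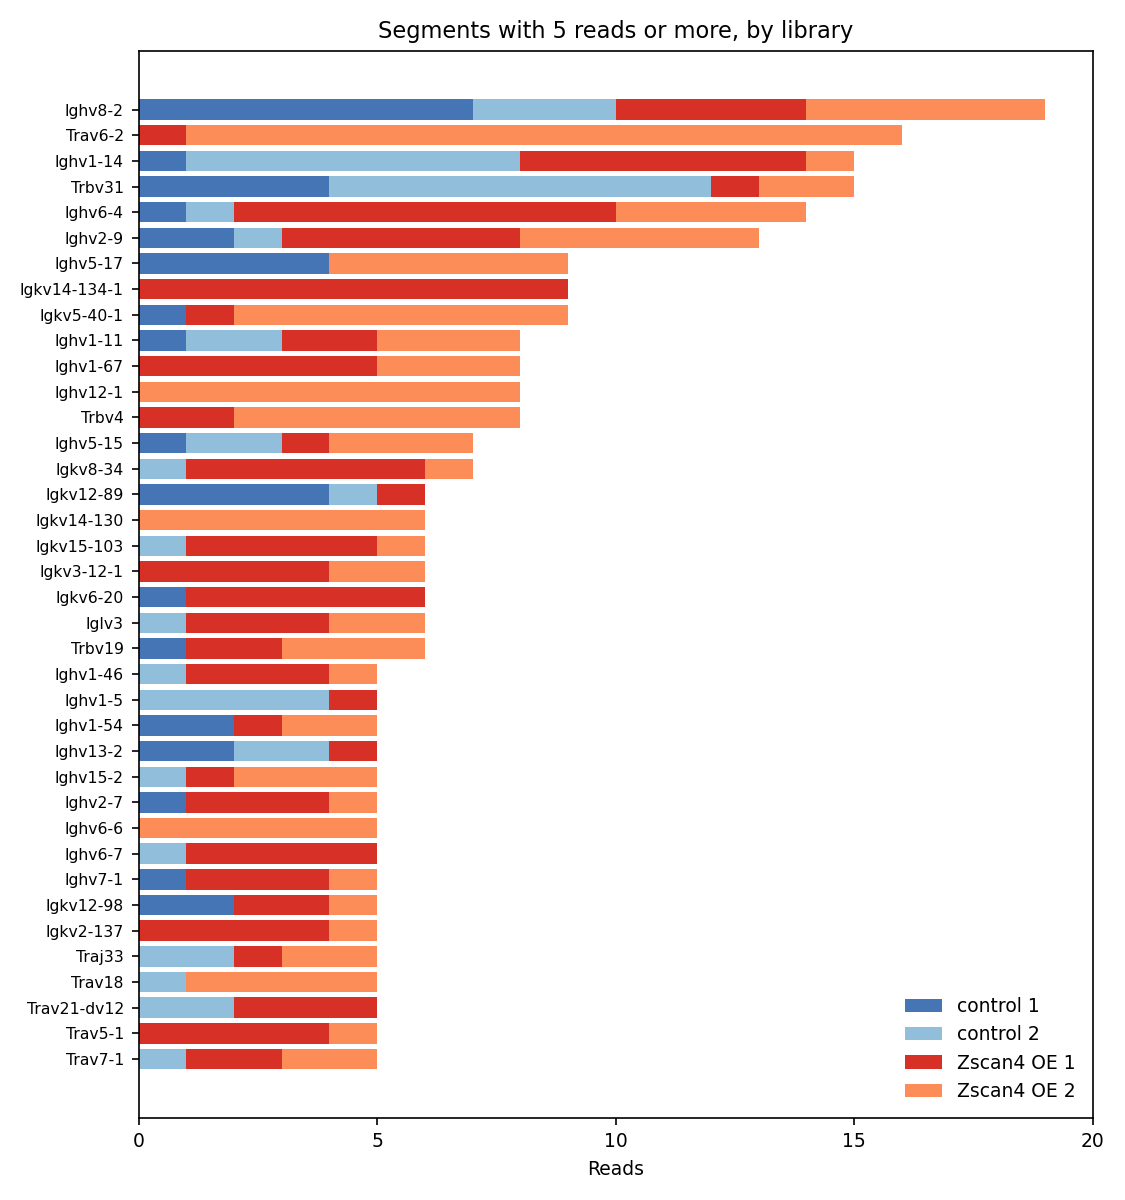
Reads of the 38 segments with 5 reads or more (horizontal bars), stacked by library. Ighv8-2 has reads in all 4 libraries, whereas Trav6-2 and Trbv4 have none in the controls and Igkv14-134-1, Ighv12-1, Igkv14-130 and Ighv6-6 each have reads in a single library.

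The constant genes encode the unchanging part of each chain. Of 20 listed, 16 were in the table and 13 were tested, with 0 higher and 0 lower by limma at either level. Their sum was 10.4, 10.3, 8.60 and 13.7 RPM. Trdc, the delta constant gene, had 1, 2, 5 and 16 reads, Ighg2b had 0, 8, 1 and 10, and Ighg3 had 1, 5, 4 and 4. V density was 1.29 ± 0.458 times that of the constant genes, above 1 in 2 libraries and below in 2.

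As a whole list, the genes that recombine the loci or pair with the receptors were covered more densely than the constant genes. The listed lymphocyte regulators were too. The 22 recombination and partner genes in the table averaged 1.13 RPKM and the 26 lymphocyte regulators 0.732 RPKM. Single genes of the first list ran from 0.0666 RPKM (Vpreb1) to 3.26 (Xrcc5), with Rag1 at 0.298 and Rag2 at 0.512. The constant genes averaged 0.451 RPKM and all rows other than segments 0.923, so the regulators lay below the latter. In either list 0 genes were called, and none lay below an unadjusted p of 0.05 (limma). Those with the most reads were Prkdc (14, 46, 44 and 59 reads), Xrcc5 (11, 17, 36 and 35) and Hmgb2 (8, 11, 48 and 30). Prkdc and Xrcc5 encode DNA end-joining proteins, and the protein of Hmgb2 bends DNA and assists RAG. Among the regulators these were Pou2f1, Foxp1 and Yy1, at 178, 134 and 109 reads over the 4 libraries.

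Stem cell markers had the highest density of the marker lists in 4 of 4 libraries. The 10 stem cell markers averaged 1.79 RPKM, the 10 fibroblast markers 1.09, the 7 T cell markers 0.952, the 6 B cell markers 0.779 and the 4 leukocyte markers 0.759. The stem cell rows were also the shortest of these. Median recovered lengths were 2245, 5658, 2992, 4058 and 6144 bp in the same order of lists. The part of row length in this order was not tested. The gene with the most reads held 19.2%, 40.2%, 31.0%, 33.2% and 44.0% of its list's reads, in the same order of lists. Zfp42, Esrrb and Sall4 had the most reads of the stem cell genes, at 118, 104 and 92. For fibroblasts these were Fn1, Col1a1 and Col1a2, at 332, 114 and 100. Ptprc, Lcp1 and Coro1a led the leukocyte genes, at 128, 88 and 55. Among T cell genes Zap70 had 75, Cd4 had 42, and Cd8a and Lck had 32 each. Blnk, Cd22 and Ms4a1 led the B cell genes, at 75, 48 and 37. None of the markers was at 0 in all libraries, and none passed an unadjusted p of 0.05 (limma). Summed over each list, reads ranged over 35.1 to 49.9 RPM in the controls and 41.8 to 70.2 in Zscan4 OE for stem cells, and over 16 to 21.7 and 16.7 to 17.7 for B cells. For T cells they ranged over 14.1 to 21.7 in the controls and 17.6 to 25.5 in Zscan4 OE. The fibroblast sums ranged over 56.1 to 75.4 and 56.3 to 84.9 RPM. The leukocyte sums ranged over 25.4 to 26.5 in the controls and 20.2 to 24.4 in Zscan4 OE and did not overlap (ratio 0.859; exact permutation test, p = 0.333, the smallest possible). The part of other cell types in the segment reads was not tested.

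Inside the loci lay 58 rows that are no segment. They averaged 0.369 RPKM, beside 0.385 for Igkv, with sums of 19.8, 20.3, 21.9 and 24.9 RPM, higher in both Zscan4 OE libraries (ratio 1.17; exact permutation test, p = 0.333, the smallest possible). Those inside Igh, Igl and Trb were also higher in both, with ratios of 1.46, 2.77 and 1.29, where Igl had 1 control read. Gm9245, a pseudogene within the Ighv cluster, held the most reads at 2, 6, 9 and 25. It held 60.0% of the reads of the rows inside Igh, and the ratio there was not computed without it. The 18 rows inside the kappa cluster gave 4.71, 3.79, 6.10 and 2.65 RPM and overlapped between groups (ratio 1.03; exact permutation test, p = 1). At an unadjusted p of 0.05, 2 rows were higher and 2 lower. Gm18748 in Igl had 0, 0, 4 and 3 reads and Gm6105 in Igh had 0, 0, 4 and 1 (limma, adjusted p = 0.331 and 0.735). Olfr1509, an olfactory receptor gene in the Tra cluster, had 5, 9, 4 and 5 reads, or 1.83, 1.2, 0.430 and 0.396 RPKM, lower in both Zscan4 OE libraries (log2 difference -1.63, SE 0.527; limma, adjusted p = 0.650). Gm25436 in Igk had 1, 1, 0 and 0 reads (adjusted p = 0.162, limma).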

How the data were processed

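ATAC-seq libraries of J1 embryonic stem cells (2 control, 2 Zscan4 OE) were deposited as a table of RPKM per gene row, that is, reads scaled by row length and a library total. Bowtie2, Trimmomatic and featureCounts are named, with the build mm10, per the submitters' processing notes. The sources used here give no versions, annotation, duplicate handling or Tn5 shift. The deposited RPKM values used 8 totals in rotation from row to row. They were recovered from 2444 short RNA genes, and each stood behind 251 to 281 single-read values (next candidate 2). All 38361 rows with at least 2 values above 0 gave exactly 1 rotation within the 9 decimals or 10 significant digits printed. Of 5918 rows with 1 value, 1353 allowed more than 1, and the shortest length was taken (33 segments, whose next length was at least 42.7 kb). Totals were assigned to columns by the placement that made exon shares most alike (highest to lowest 1.36; next best 4.17). Each value was then rescaled to its own library total. The next best placement gave shares of 5.22%, 9.38%, 19.15% and 21.78%, and the one after it 5.87%, 25.66%, 15.90% and 13.49%. The choice takes the shares to be alike in control and Zscan4 OE, which was not tested, and ratios between the groups rest on it. The planned test assumed values scaled per library, so it was run on these rescaled values.

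Each row's reads and length are the smallest pair of whole numbers that gives its values. A shared factor may thus be missing from both. This leaves the RPKM of that row as it is, but lowers its reads and changes sums and densities over rows. With reads scaled to the annotated or typical length, the ratio of Zscan4 OE to control was 1.17 in place of 1.11 for all segments. For J segments it was 1.52 in place of 1.34. With annotated lengths, the V to J ratio per kb was 0.255 in place of 0.323. Of 69 D and J segments with a read, 54 had the annotated length and 6 exactly 1 part in 2 of it, and 16 of 187 V lengths were under 250 bp. Rows without reads took their set's median length. Symbols shared by 2 rows touched 4 segments. Reads that fit several near-identical V segments may have been placed in any of them or dropped, since the sources used here state no multimapping rule.

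Limma 3.58.1 (R 4.3.3) was run on log2(RPKM + 0.1), which understates changes of low values, with an eBayes trend, rows of mean RPKM at least 0.1, Benjamini-Hochberg adjustment (all tested rows together) and an adjusted p of 0.05 as the threshold. Sums were compared by two-sided exact permutation tests over libraries, and ratios of classes by exact sign-flip permutation tests (Python 3.11.15, scipy 1.17.1). Scripts were tested on simulated data. Named genes were the 3 members per locus with the most reads (ties included), the 5 with the smallest p in each direction, every D segment with a read, and, of other lists, the 3 with the most reads and those with an unadjusted p under 0.05. Others named were chosen after their values were seen: Trav7-1 by a tie, Igkv3-12-1, Ighv12-1, Igkv14-130, Ighv6-6, Rag1, Rag2 and Vpreb1, and the Ighv1 and Ighv6 families. Members and lists were chosen with earlier results of these data known. Alternatives were the scaling, pseudocount, filter, lengths, a replicate block and leaving out each library. One item of the marker lists is not reported here.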

Additional observations from a re-analysis of the deposited data

How the results depend on the processing

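Leaving out each library in turn moved the ratio of Zscan4 OE to control RPM, which fell below 1 or rose above it in some cases. The ratio ran from 0.859 to 1.57 for all segments, from 0.802 to 1.56 for V segments, from 0.582 to 1.29 for Igh and from 0.871 to 1.25 for Trb. With the values as deposited, on the rotating totals, Igh stood at 3.28 in place of 0.801, all segments at 3.99 (groups not overlapping) in place of 1.11, and V segments at 2.69 in place of 1.06. Limma calls ran from 0 to 87 higher, segments lying above the controls from 37 to 111 (11.2% to 33.6%, against 30.8% to 37.7% of all rows), and segments lying below from 13 to 51 (3.9% to 15.5%, against 14.0% to 30.0%). With fewer libraries, fewer values have to lie apart. Of 140 recomputed values, 128 kept the direction and the side of the threshold. Per kb, segments to all other rows moved from 0.667 to 0.977 when rows with reads were compared by their median. No limma calls among segments could be made for rows of 20 reads or more, with or without voom, since no segment had 20. Without control 1, or without its 3 rows with the most reads, the Igkv pseudogenes gave no ratio because the controls were at 0; over the other alternatives, added after the values were seen, it ran from 6.72 to 54.4.

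A replicate block (number 1 and number 2 as pairs) left 0 segments higher and 0 lower by limma, with 21 and 9 at an unadjusted p of 0.05. Deviations of same-numbered libraries correlated at 0.04 over all tested rows and 0.13 over rows with 20 reads or more. The labels do not say what the numbers mark. Exon shares were 12.4% and 12.8% in the libraries numbered 1 and 9.38% and 9.93% in those numbered 2, and a shared batch was not tested.

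With at most 19 reads in a segment and 2 libraries in a group, depth limits what any single segment can show.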
